A study of Mus musculus with 6 samples.

Results

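Integrins, laminins and nidogens are the receptors and the sheet-forming proteins through which fibroblasts hold to their matrix. Genes were selected by symbol alone, as every integrin α or β subunit, laminin α, β or γ chain and nidogen in the deposited table. The selection found 40 of 34745 rows, made up of 27 integrin, 11 laminin and 2 nidogen rows. These carry 39 symbols, because Itgam stands on 2 rows. The RNA came from wild-type (WT) primary mouse renal fibroblasts, grown out of kidney tissue digested with trypsin and collagenase. The fibroblasts were left to adhere for 6 h and were then either kept without T cells (3 libraries, "alone") or cultured for 24 h below an insert with 0.4 μm pores that held induced Th17 cells, helper T cells that make interleukin-17 (3 libraries, "cocultured"). Fibroblasts of both groups shared genotype and isolation, and only cells of the lower chamber were collected. The age of the mice, how long the lone fibroblasts were kept after adhesion, and whether lone wells had an empty insert were not stated. Nor was it stated if the 3 libraries of each group were separate cultures or animals, so every SD, SE and p value measures how far these libraries spread, which may be technical.

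An integrin is a pair of an α and a β subunit in the cell membrane. The α subunit largely sets what the pair binds, such as collagen, laminin, or the Arg-Gly-Asp (RGD) motif of fibronectin and vitronectin. The β subunit links the pair to talin, kindlin and the actin cytoskeleton. A laminin is a trimer of an α, a β and a γ chain that assembles into a sheet, and nidogens bridge that sheet to the collagen IV network of the basement membrane. In the kidney such sheets underlie the tubules and line the glomerular filter, and fibroblasts between the tubules deposit laminin and collagen in fibrosis.

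Total counts ranged from 12050529 to 13209581 per library, and the 40 rows held 0.812%, 0.843% and 0.821% of them in the fibroblasts cultured alone and 0.774%, 0.766% and 0.698% in the cocultured fibroblasts. At this depth 3 counts corresponded to 0.223 to 0.254 CPM, the count after TMM scaling to equal library size. The chi-square statistic per gene was 6.07 to 14.3 between libraries of the same group and at least 74.9 between groups, so no library was a copy of another. The label was checked against markers. Summed over 12 fibroblast markers, all of which were detected, the level was 48880 to 50990 CPM alone and 24790 to 28280 CPM in coculture. Much of the difference lay in Col1a1 (mean 15090 CPM alone, 6235 in coculture) and Col1a2 (12470 and 4626). Of the 12, 10 were lower at an edgeR adjusted p below 0.05 (83.3%, against 20.0% of all genes tested). Dcn was higher (505.0 CPM alone, 1429 in coculture), and Postn did not pass. Over 20 macrophage markers it was 73.8 to 80.3 CPM alone and 20.9 to 22.6 CPM in coculture. Over 20 T cell markers it was 7.69 to 9.33 CPM alone and 5.03 to 6.03 CPM in coculture, and 9 of them, Il17a and Cd3d included, had no count in any library. The 2 tested were Lck, with a mean of 4.725 CPM alone and 2.293 in coculture (adjusted p = 0.00755 by edgeR), and Trac, at 2.644 and 2.689 CPM (adjusted p = 0.948 by edgeR).

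The comparison asked which transcripts of fibroblasts differ in the presence of Th17 cells. More of the adhesion genes fell than rose in coculture. The largest well-measured decrease was that of Itga11, a collagen receptor subunit, and 4 of 5 laminin α chains, the laminin γ1 chain and both nidogens also fell. The subunits of the vitronectin receptors Itgav, Itgb3 and Itgb5, the α4 subunit Itga4 and both well-expressed laminin β chains rose, Itgav and Itgb3 with 1 cocultured library apart from the others, while Itgb1, the partner of most α subunits, did not pass the test. Of the 40 rows, 30 had counts enough to be tested. Of the 10 others, Itgad and Itgax had no count in any library, and Itgae, Itgal, Itgam on both rows, Itgb6, Itgb7, Lamb3 and Lamc3 had at most 15 counts in any library.

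Genes were called past the threshold at an adjusted p below 0.05 (edgeR quasi-likelihood test, Benjamini-Hochberg over the 13088 genes tested) together with a fold change above 2. Among the 30 tested rows 3 were higher (10%, against 3.87% of all genes tested) and 5 were lower (16.7%, against 7.78%). With the adjusted p alone, 7 were higher (23.3%, against 17.1%), 15 were lower (50.0%, against 20.0%) and 8 did not pass. The groups did not overlap in CPM for 25 of the 30 (83.3%, against 50.4% of all genes tested). The median log2 fold change was −0.35 over the 30 and 0.0038 over all genes tested. The share with higher calls thus lay near that of all genes when no fold limit was set, and the share with lower calls lay above it. Of the 30, Itgb8, Itgb2 and Itga10 passed the filter on low counts through the group in which they were high. Their calls past the threshold (Itgb8 and Itgb2 lower, Itga10 higher) and their lack of overlap were thus favoured by that filter. They are counted in the shares above.

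**Figure D1:**
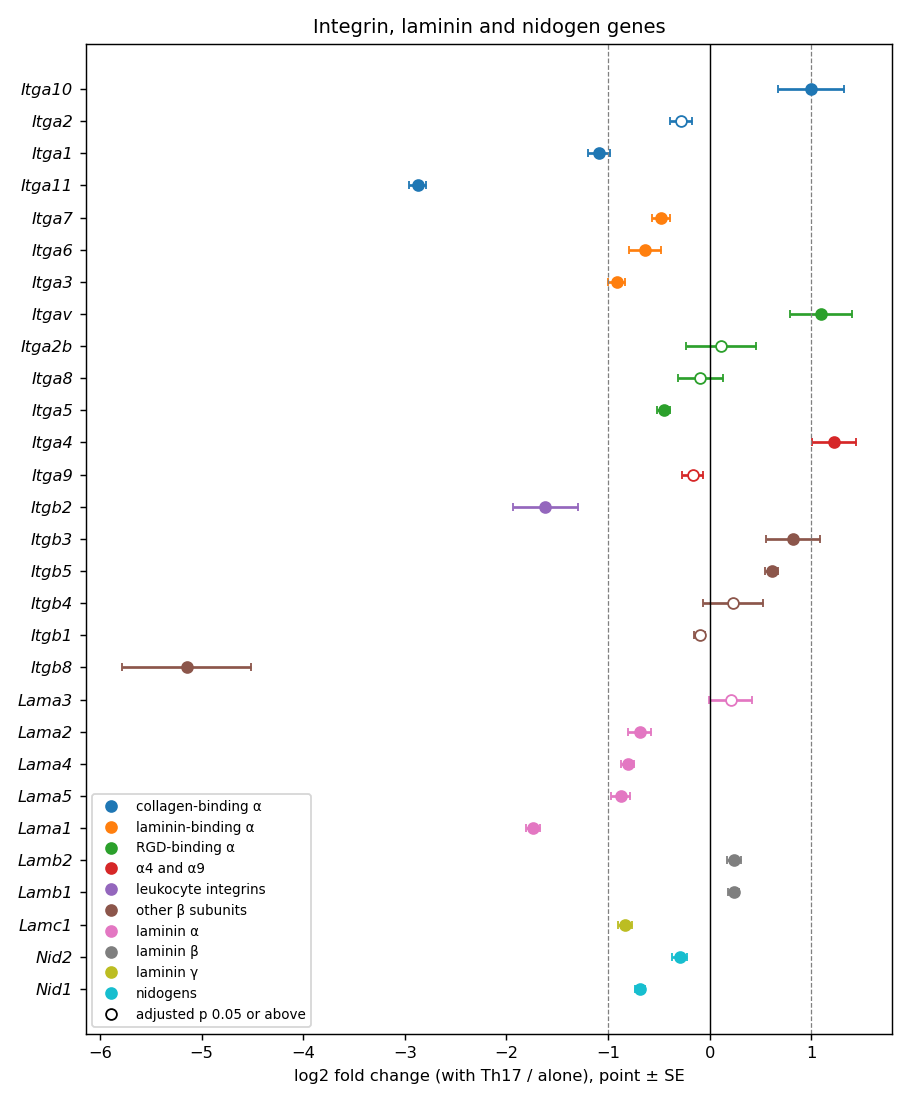
Log2 fold change of cocultured over lone fibroblasts (x axis, point ± SE) for the tested genes reported by name (y axis), coloured by class. Open points did not pass an adjusted p of 0.05 and dashed lines mark a 2-fold change. Itga11, Lama1 and Itgb8 lie furthest to the left, and all 3 laminin-binding α subunits and both nidogens lie left of 0.

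Of the 4 collagen-binding α subunits, Itga11 and Itga1 fell, Itga10 rose and Itga2 did not pass. Promoters of 3 genes are set out first, those of the strongest falls among these receptors and of Itga4, whose rise passed an adjusted p of 0.05 in all 14 alternatives apart from glmTreat, a test against a 2-fold change; they were chosen after the values had been seen. Each run is the 250 bases before the RefSeq transcript start, 5′ to 3′ on the gene's strand, on GRCm38.p6. They lie at chr9:62677605-62677854 (plus strand, Itga11), chr13:115101965-115102214 (minus strand, Itga1) and chr2:79255176-79255425 (plus strand, Itga4). Capitals mark a GC box (GGGCGG).

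Itga11: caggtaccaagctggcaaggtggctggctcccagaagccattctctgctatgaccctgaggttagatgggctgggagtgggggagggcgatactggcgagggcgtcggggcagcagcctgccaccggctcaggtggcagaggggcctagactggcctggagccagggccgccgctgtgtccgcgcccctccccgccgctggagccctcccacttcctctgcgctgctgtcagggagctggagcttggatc

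Itga1: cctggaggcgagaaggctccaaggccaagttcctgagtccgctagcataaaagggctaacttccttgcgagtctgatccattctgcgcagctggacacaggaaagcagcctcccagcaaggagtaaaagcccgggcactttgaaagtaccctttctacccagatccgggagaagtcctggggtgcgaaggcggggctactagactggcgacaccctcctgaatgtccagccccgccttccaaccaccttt

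Itga4: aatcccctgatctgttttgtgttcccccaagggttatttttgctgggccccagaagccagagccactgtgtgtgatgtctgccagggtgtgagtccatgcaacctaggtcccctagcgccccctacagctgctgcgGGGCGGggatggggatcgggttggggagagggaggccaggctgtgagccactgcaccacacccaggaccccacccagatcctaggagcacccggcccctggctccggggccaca

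Windows of this length were found for 24 of the 39 symbols (27 windows in all) and searched on both strands for 4 motifs that do not overlap in their letters. A GC box stood in 37.0% of them and in 32.7% of the 32851 windows of all genes. The TEAD motif GGAATG stood in 14.8% against 12.6%, the AP-1 motif TGANTCA in 3.7% against 6.75%, and the TATA box TATAAA in none of the 27 against 12.4%. In the runs printed here only the Itga4 window held a match, a GC box from 114 to 109 bases before the start, and the windows of Itga11 and Itga1 held none of the 4 motifs. Windows not printed held a GC box for genes that fell (Itga3, Itga5, Lama5 and Nid1), rose (Itgb5 and Lamb1) or did not pass (Itgb1).

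Itga11 (ENSMUSG00000032243, chr9:62677826-62783982 on GRCm38) encodes the α11 subunit, a receptor for fibrillar collagen that is typical of fibroblasts. It had 1716, 1730 and 1597 counts in the lone libraries and 231, 262 and 229 in the cocultured libraries. The groups lay far apart, and the libraries within each group were close. The mean fell from 135.1 ± 1.75 to 18.4 ± 1.90 CPM (SD, n = 3 each), a log2 fold change of −2.88 (SE 0.087, adjusted p = 4.57e-08 by edgeR), which is 7.34-fold lower. Itga1 (chr13:114958079-115101964) encodes the α1 subunit, a receptor for collagen IV and other collagens. Its counts were 485, 467 and 385 alone and 250, 209 and 200 in coculture, again without overlap. The log2 fold change was −1.09 (SE 0.109, adjusted p = 5.85e-05 by edgeR). An annotated gene, Gm49395, overlaps exons of Itga1 on the same strand.

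Itga2, the α2 subunit of another collagen receptor, had 214, 212 and 215 counts alone and 195, 188 and 173 in coculture. The groups did not overlap, but the log2 fold change of −0.28 (SE 0.106) did not pass (adjusted p = 0.0671 by edgeR). Itga10 (chr3:96645584-96664519), a collagen receptor subunit known from cartilage, was scarce, with 10, 9 and 14 counts alone and 21, 28 and 21 in coculture. Its log2 fold change of 1.0 (SE 0.324, adjusted p = 0.0379 by edgeR) was only just past the 2-fold limit, and its adjusted p rose above 0.05 under 8 of the 13 alternatives that could test it (glmTreat apart), among them leaving out lone replicate 1 or 2 or any cocultured library (0.0512 to 0.131). Gm42957, which overlaps it on the same strand, had 0, 1 and 0 counts alone and 7, 0 and 4 in coculture.

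The proportions among the collagen-binding subunits differed between the groups. In the deposited FPKM values, which are scaled to gene length, Itga11 held 70.6%, 71.3% and 71.7% of the summed level of the 4 in the lone libraries and 32.1%, 36.9% and 35.5% in the cocultured libraries. The share of Itga2 was 11.5% ± 0.651 alone and 34.1% ± 0.400 in coculture, and that of Itga1 was 16.9% ± 1.24 and 28.5% ± 2.45 (SD, n = 3 each). The cocultured shares of Itga11, Itga1 and Itga2 were thus alike in FPKM, but this rested on the gene length used: with the length of all annotated exons Itga11 held 85.4% ± 0.216 alone and still 52.6% ± 2.19 in coculture, with Itga2 at 29.1% ± 1.21 (SD, n = 3 each). The decrease of the Itga11 share had the same direction with both lengths. For each of these FPKM shares the exact two-sided permutation test over the 6 libraries gave p = 0.1, the smallest that 3 against 3 libraries allow. All 4 subunits together were 6.17% of the FPKM of all α subunits alone and 2.33% in coculture.

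**Figure D2:**
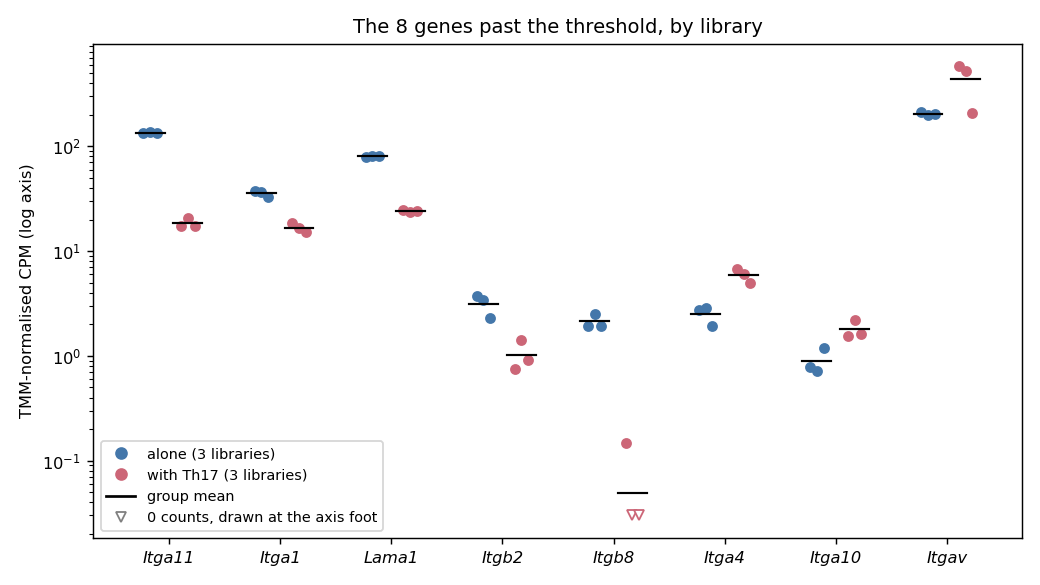
TMM-normalised CPM on a log axis (y axis) of the 8 genes past the threshold (x axis), with 1 point per library, 3 alone and 3 with Th17, and a bar at each group mean; open triangles at the axis foot are 0 counts. Itga11, Itga1, Lama1, Itgb2 and Itgb8 separate downward, Itga4 and Itga10 upward, and the lowest cocultured Itgav point lies among the lone libraries.

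All 3 laminin-binding α subunits fell, each by less than 2-fold and each without overlap between groups. Itga3 encodes the α3 subunit, a receptor for laminins with the α5 chain. It had 589, 573 and 493 counts alone and 298, 320 and 303 in coculture, a log2 fold change of −0.92 (SE 0.088, adjusted p = 4.52e-05 by edgeR). Itga7, the muscle-type laminin receptor subunit, had the highest FPKM of the 3 (with the length of all annotated exons Itga3 was higher) and went from 487, 458 and 471 counts to 397, 325 and 347, a log2 fold change of −0.48 (SE 0.090, adjusted p = 0.00274 by edgeR). Itga6, known from the epithelial pairs α6β1 and α6β4, had 152, 159 and 141 counts alone and 96, 86 and 124 in coculture (log2 fold change −0.64, SE 0.153, adjusted p = 0.0100 by edgeR). The cocultured replicate 3 was the highest of its group for Itga6 and still lay below every lone library. Itgb4, the partner of Itga6 in hemidesmosomes, was near the limit of detection at 1.25 ± 0.207 CPM alone and 1.48 ± 0.308 CPM in coculture (SD, n = 3 each), and its groups overlapped (adjusted p = 0.584 by edgeR). Beside these laminin receptors, the summed level of 12 epithelial markers was 22.2 to 23.8 CPM alone and 7.84 to 9.12 CPM in coculture, with Umod, Slc34a1 and Aqp2 at no count in any library. Krt19 and Lrp2 were lower by adjusted p of the 4 tested, Aqp1 was at 2.97 and 4.26 CPM (adjusted p = 0.0531 by edgeR), and without Krt19 the sum was 6.60 to 8.70 CPM alone and 5.66 to 6.05 CPM in coculture. The summed level of 11 mural and muscle markers, all detected, was 10280 to 10880 CPM and 4849 to 5480 CPM. Their part in the decreases was not tested.

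Among the 4 α subunits of RGD-binding integrins, Itga5 fell, Itgav rose and Itga8 and Itga2b did not pass. Itga5 encodes the α5 subunit of the main fibronectin receptor and was the most abundant α transcript. It had 27877, 28297 and 25852 counts alone and 22052, 21454 and 19518 in coculture. The groups did not overlap, and the mean went from 2197 ± 36.8 to 1605 ± 105 CPM (SD, n = 3 each), a log2 fold change of −0.45 (SE 0.060, adjusted p = 0.000358 by edgeR). It remained by far the largest α subunit per length, at 87.6% of the FPKM of all α subunits alone and 86.9% in coculture (exact two-sided permutation p = 0.7). Itga8, the α8 subunit that binds nephronectin in the kidney, was at 4.01 ± 0.715 CPM alone and 3.76 ± 0.693 CPM in coculture (adjusted p = 0.782 by edgeR), and Itga2b, the platelet subunit, at 1.86 ± 0.655 and 2.02 ± 0.627 CPM (adjusted p = 0.838 by edgeR; SD, n = 3 each). Both overlapped between groups.

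Itgav (chr2:83724397-83806916) encodes the αv subunit, which pairs with β1, β3, β5, β6 or β8 in receptors for vitronectin and latent TGF-β. It had 2758, 2487 and 2397 counts in the lone libraries and 7762, 6683 and 2727 in the cocultured libraries. Cocultured replicates 1 and 2 were high, and cocultured replicate 3 lay among the lone libraries, so the groups overlapped. The mean was 204.6 ± 8.93 CPM alone and 436.9 ± 200 CPM in coculture (SD, n = 3 each), a log2 fold change of 1.09 (SE 0.304, adjusted p = 0.0198 by edgeR). Without cocultured replicate 3 the log2 fold change was 1.43 (adjusted p = 1.63e-06), and without any other library it was between 0.84 and 1.12 with an adjusted p of 0.053 to 0.0727. Among genes with a mean of at least 100 counts, cocultured replicate 3 was more than 2-fold below both other libraries of its group in 28 of 9646, and the other 5 libraries were so in 15 to 29. By the chi-square statistic per gene, however, cocultured replicate 3 stood further from its group, at 14.3 and 13.2 against replicates 1 and 2. Cocultured replicates 1 and 2 differed from each other by 8.07, and the lone libraries by 6.07 to 6.97. The antisense gene Gm13684, which overlaps Itgav, had no counts.

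The β subunits that pair with αv moved in different directions. Itgb5, the β5 subunit of a vitronectin receptor, had 4510, 4424 and 3955 counts alone and 7089, 7204 and 6378 in coculture, with no overlap. Its mean went from 344.9 ± 8.89 to 526.5 ± 40.4 CPM (SD, n = 3 each), a log2 fold change of 0.61 (SE 0.067, adjusted p = 0.000116 by edgeR). Itgb3, the β3 subunit shared with platelets and osteoclasts, had 256, 290 and 250 counts alone and 373, 735 and 365 in coculture. The groups did not overlap, but cocultured replicate 2 stood well above its group, whose coefficient of variation was 45.9%. The log2 fold change was 0.82 (SE 0.265, adjusted p = 0.0371 by edgeR), but the adjusted p was 0.0677 with DESeq2, 0.0572 with limma on log2(FPKM + 1) and 0.0691 to 0.108 when a lone library was left out. Over the alternatives (glmTreat apart) the log2 fold change of Itgb3 lay between 0.382 and 1.005. Cocultured replicate 2 was at 57.8 CPM and replicates 1 and 3 at 27.8 CPM each, against 19.9 to 22.9 CPM alone. The libraries that stood apart were not the same for Itgav (replicate 3, low) and Itgb3 (replicate 2, high). Summed over 8 platelet markers the level was 1.63 to 3.48 CPM alone and 6.25 to 6.78 CPM in coculture, and the increase rested on Ppbp (3, 7 and 3 counts alone, 71, 66 and 75 in coculture). Without Ppbp the sum was 1.40 to 2.93 CPM alone and 0.967 to 1.26 CPM in coculture, Pf4 went from 7, 10 and 8 counts to none, and Gp9 had no count in any library. The part of platelet RNA in the Itgb3 result was not tested.

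Itgb8 (chr12:119158022-119238802) encodes the β8 subunit, whose pair with αv binds latent TGF-β. It had 25, 32 and 23 counts alone and 2, 0 and 0 in coculture. All cocultured libraries were thus at or below 3 counts. Summed over the libraries of a group there were 80 counts alone and 2 in coculture, a 42.1-fold ratio with a 95% interval of 11.3 to 353.5 that covers counting error only. The edgeR adjusted p was 0.000231. Itgb6, the β6 subunit of epithelium, had 0, 0 and 4 counts alone and 1, 0 and 2 in coculture and was not tested.

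Itgb1, the β1 subunit that collagen, laminin and fibronectin receptors share, had 29733, 31054 and 27476 counts alone and 30908, 27087 and 28979 in coculture. Its CPM values were 2363 ± 80.1 and 2212 ± 85.4 (SD, n = 3 each). The log2 fold change of −0.10 (SE 0.054) did not pass (adjusted p = 0.200 by edgeR). The FPKM of Itgb1 over that of all α subunits was 0.721, 0.747 and 0.721 alone and 0.921, 0.841 and 1.03 in coculture (exact two-sided permutation p = 0.1, the smallest possible). Among β subunits the share of Itgb1 went from 84.2% ± 0.422 to 76.6% ± 2.05 of the FPKM and that of Itgb5 from 15.1% ± 0.435 to 22.4% ± 1.65 (SD, n = 3 each), each with the same exact p = 0.1.

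**Figure D3:**
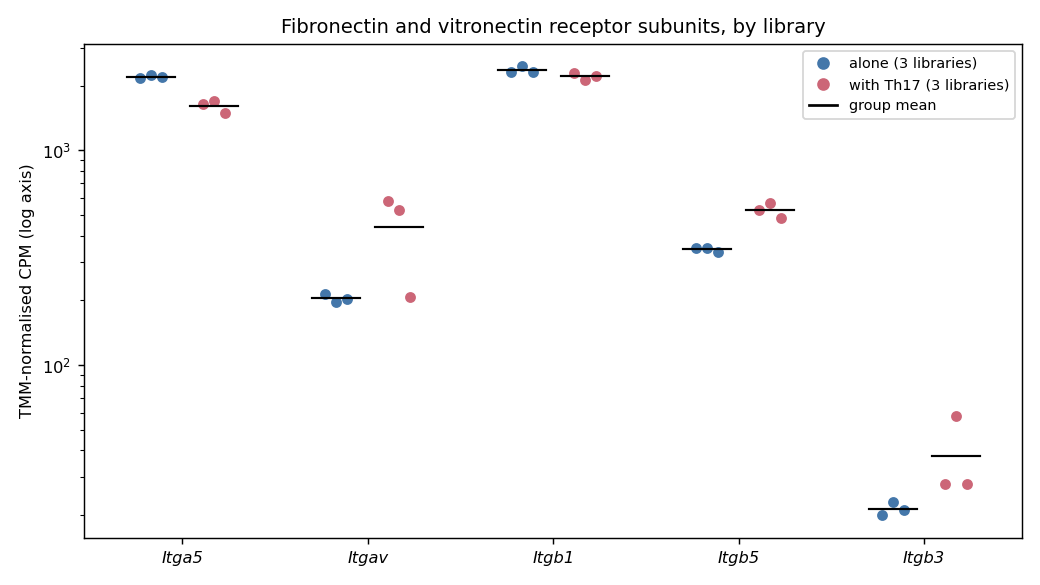
TMM-normalised CPM on a log axis (y axis) of Itga5, Itgav, Itgb1, Itgb5 and Itgb3 (x axis), with 1 point per library, 3 alone and 3 with Th17, and a bar at each group mean. Itga5 and Itgb5 separate in opposite directions, and 1 cocultured library stands apart for Itgav (replicate 3, low) and for Itgb3 (replicate 2, high).

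Itga4 (chr2:79255426-79333123) encodes the α4 subunit, a receptor for VCAM-1 and fibronectin best known from leukocytes. It had 35, 36 and 23 counts alone and 90, 76 and 65 in coculture, without overlap. The mean went from 2.50 ± 0.487 to 5.87 ± 0.879 CPM (SD, n = 3 each), a log2 fold change of 1.22 (SE 0.216, adjusted p = 0.00196 by edgeR). Cerkl, which overlaps it on the opposite strand, had at most 2 counts in any library. Itga9, the related α9 subunit, had the higher FPKM of this pair (2.70 alone and 2.51 in coculture). Its counts were 302, 297 and 275 alone and 280, 290 and 248 in coculture, with a log2 fold change of −0.17 that did not pass (adjusted p = 0.227 by edgeR).

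Leukocyte integrins were at trace levels. Itgb2 (chr10:77530252-77565708), the β2 subunit common to leukocyte integrins, had 48, 43 and 27 counts alone and 10, 18 and 12 in coculture, with no overlap. It went from 3.14 ± 0.757 to 1.02 ± 0.349 CPM (SD, n = 3 each), a log2 fold change of −1.62 (SE 0.323, adjusted p = 0.00393 by edgeR). Its α partners were below the filter. Itgam had 12, 4 and 6 counts alone and 1, 1 and 2 in coculture on its main row, and 10, 15 and 2 against 2, 0 and 0 on a second row (ENSMUSG00000108596) that overlaps the main row on the same strand. Itgal had 10, 6 and 0 counts alone and none in coculture. Macrophage markers moved with Itgb2. Of the 20 on the list 10 were tested and 9 were lower by adjusted p (90.0%, against 20.0% of all genes tested). The lower share was also high for fibroblast markers (83.3%) and for mural and muscle markers (88.9%). Among the lower macrophage markers were Adgre1 (71, 47 and 55 counts alone, none in coculture) and Ptprc (14, 12 and 11 alone, none in coculture). Like Ctss, Laptm5, Mpeg1 and Aif1, both had fewer than 10 counts in every cocultured library. These genes passed the filter on low counts through the lone group, so their lower calls were largely fixed in advance. Cd163 had no count in any library. Cd14 did not pass (adjusted p = 0.998 by edgeR). The part of macrophages in the Itgb2 result was not tested, and in bulk RNA fewer cells of a type and less RNA per cell cannot be told apart. Of the other subunits known from T cells, whose groups overlapped and which were not tested, Itgb7 was at 6, 13 and 5 counts alone and 13, 9 and 4 in coculture, and Itgae was at 4, 2 and 1 against 2, 0 and 0.

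Laminin chains differed by type: the α and γ chains that passed the test fell, and the β chains rose. Lama1 (chr17:67697265-67822645), the α1 chain of embryonic and tubular laminin, had 1019, 1022 and 953 counts alone and 329, 299 and 314 in coculture. The libraries of a group were almost level, and the groups lay far apart. The mean fell from 80.2 ± 0.911 to 24.0 ± 0.491 CPM (SD, n = 3 each), a log2 fold change of −1.74 (SE 0.070, adjusted p = 1.64e-07 by edgeR). Lama4, the α4 chain of mesenchymal and vascular laminin, had the highest FPKM of the α chains. It went from 2662, 2648 and 2398 counts to 1622, 1572 and 1448, a log2 fold change of −0.80 (SE 0.064, adjusted p = 1.36e-05 by edgeR). Lama5, the main chain of mature epithelial basement membranes, and Lama2, the muscle chain, also fell, with log2 fold changes of −0.88 (adjusted p = 0.000119 by edgeR) and −0.69 (adjusted p = 0.00128 by edgeR). Lama3, the chain of epithelial anchoring laminin, was at 3.23 ± 0.507 CPM alone and 3.72 ± 0.613 CPM in coculture, and its groups overlapped (adjusted p = 0.494 by edgeR). Beside Lama4, 10 endothelial markers summed to 10.4 to 12.02 CPM alone and 5.58 to 6.21 CPM in coculture, with Tie1, Emcn and Cldn5 at no count in any library. The decrease rested on Kdr, the marker lower by adjusted p of the 3 tested, and without it the sum was 4.59 to 6.26 CPM alone and 5.43 to 6.13 CPM in coculture.

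Lamb1, the β1 chain, was the most abundant laminin chain and rose slightly. It had 10414, 10775 and 10021 counts alone and 12988, 13235 and 12485 in coculture, without overlap, and its log2 fold change was 0.24 (SE 0.057, adjusted p = 0.00992 by edgeR). Lamb2, the β2 chain of glomerular laminin, had 1261, 1273 and 1073 counts alone and 1493, 1546 and 1436 in coculture (log2 fold change 0.24, SE 0.071, adjusted p = 0.0259 by edgeR). Its adjusted p rose to between 0.0598 and 0.106 when lone replicate 1, lone replicate 3 or cocultured replicate 2 was left out. Lamc1, the γ1 chain shared by most laminins, moved the other way, from 4889, 4908 and 4534 counts to 3032, 2842 and 2600, a log2 fold change of −0.83 (SE 0.066, adjusted p = 1.26e-05 by edgeR). Lamb3, a β chain of epithelium, had 2 counts in all, and Lamc3, the γ3 chain, had at most 7 in any library.

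The proportions of the chain types therefore differed between the groups. Per length, β chains held 54.0%, 54.5% and 54.5% of the summed laminin FPKM in the lone libraries and 71.1%, 72.8% and 73.1% in the cocultured libraries. The γ share went from 26.8% ± 0.218 to 17.2% ± 0.778 and the α share from 18.9% ± 0.131 to 10.5% ± 0.334 (SD, n = 3 each). The ratio of β to γ chains was 2.03 ± 0.0275 alone and 4.22 ± 0.247 in coculture. Within the α chains the share of Lama1 went from 31.0% to 18.8% and that of Lama4 from 51.4% to 59.6%. For all these shares and the ratio the exact two-sided permutation p was 0.1, the smallest possible. Within the β chains the share of Lamb1 was 83.5% in both groups (exact two-sided permutation p = 1.0).

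**Figure D4:**
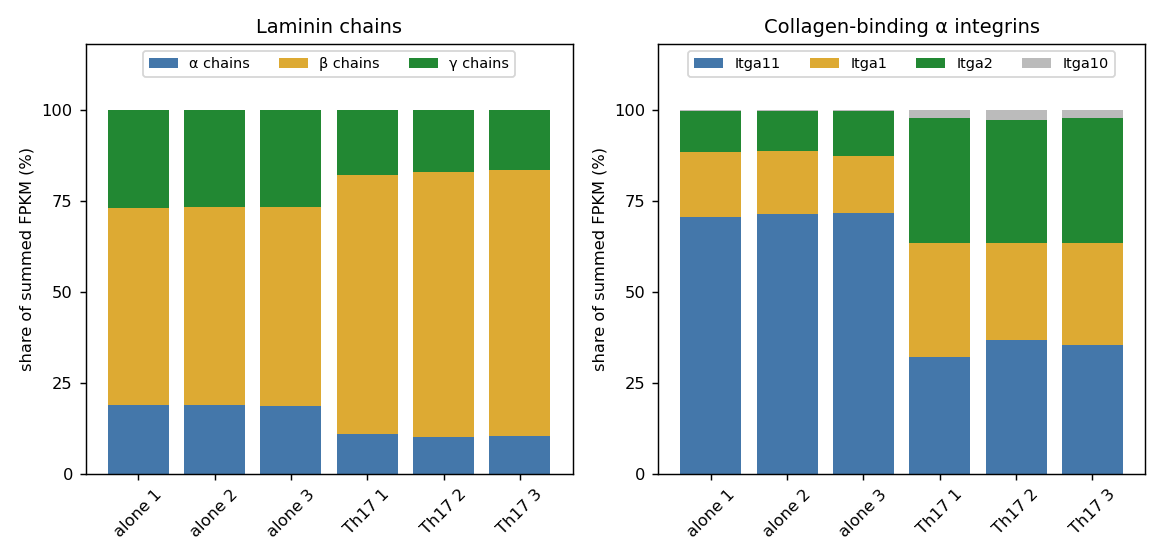
Share of summed FPKM in percent (y axis) in each of the 6 libraries (x axis), for laminin α, β and γ chains (left) and the 4 collagen-binding α integrins (right). In every cocultured library the laminin β band is wider and the Itga11 band narrower than in every lone library.

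Both nidogens fell. Nid1, the nidogen that most tissues use to join laminin to collagen IV, had 15630, 15673 and 14269 counts alone and 10411, 9865 and 9570 in coculture. The groups did not overlap, and the mean went from 1220 ± 16.8 to 759.7 ± 26.8 CPM (SD, n = 3 each), a log2 fold change of −0.68 (SE 0.052, adjusted p = 1.01e-05 by edgeR). Nid2 had 1124, 1183 and 1109 counts alone and 1034, 991 and 911 in coculture, a log2 fold change of −0.29 (SE 0.073, adjusted p = 0.0118 by edgeR). On the opposite strand Rtraf overlaps exons of Nid2 and Gm48682 overlaps exons of Nid1, and their counts were not compared. Nid1 made up 91.5% of the nidogen FPKM alone and 89.2% in coculture (exact two-sided permutation p = 0.1).

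On the FPKM scale the most abundant of the 40 rows alone were Itga5 (490.3 ± 8.55), Itgb1 (408.4 ± 13.8), Nid1 (197.2 ± 2.55), Itgb5 (73.2 ± 1.67) and Lamb1 (64.1 ± 1.97; SD, n = 3 each). Itga11 was rank 7 of the rows alone, at 24.6 ± 0.354 FPKM, and rank 14 in coculture, at 3.50 ± 0.342, where it lay within its SD of Itga3 (3.55 ± 0.215) and Itga2 (3.43 ± 0.189). Itgav moved from rank 9 (14.5 ± 0.610) to rank 6 (32.3 ± 14.7), with an SD that reached Lamc1 (21.6 ± 1.44). In coculture the FPKM of Itgb1 was 399.5 ± 16.8 and that of Itga5 374.1 ± 22.3. These levels rest on the lengths that the authors' FPKM implies, which were 0.546 (Itga1) to 2.86 (Itga6) times the longest annotated transcript. With the length of all annotated exons instead, Itgb1 led Itga5 in both groups (579.1 against 445.3 CPM per kb alone, 542.1 against 325.3 in coculture), and the β to γ ratio of laminins was 2.10 alone and 4.38 in coculture.

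Partners of these genes were counted on lists of the same pathway, which were chosen with earlier results of these data known. Of 36 intracellular activators and adaptors of integrins 35 were tested. Past the threshold 1 was higher and 3 were lower (2.86% and 8.57%, against 3.87% and 7.78% of all genes tested). By adjusted p 7 were higher and 9 lower (20.0% and 25.7%, against 17.1% and 20.0% of all genes tested), with a median log2 fold change of −0.12. Parvb, an actin-binding partner of integrin-linked kinase, had 284, 223 and 241 counts alone and 949, 901 and 877 in coculture (log2 fold change 1.79, adjusted p = 9.7e-07 by edgeR). Ptk2b, a kinase related to focal adhesion kinase, had 352, 390 and 303 counts alone and 117, 94 and 79 in coculture (−1.92, adjusted p = 1.11e-05 by edgeR). Cav1, the caveolin that associates with integrins, had 996, 402 and 402 counts alone and 311, 160 and 162 in coculture (−1.57, adjusted p = 0.00904 by edgeR), with replicate 1 the highest in both groups. The shares called on this list lay near those of all genes.

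Of 35 integrin ligands 27 were tested, 2 were higher and 7 lower past the threshold, and 7 were higher and 13 lower by adjusted p (median −0.36). The lower genes were 25.9% past the threshold and 48.1% by adjusted p, against 7.78% and 20.0% of all genes tested, and the higher genes 7.41% and 25.9%, against 3.87% and 17.1%. Vcam1, the ligand of α4β1, fell from 1008 ± 17.4 to 125.3 ± 4.46 CPM (log2 fold change −3.01, adjusted p = 8.56e-09 by edgeR), and Icam1, a ligand of β2 integrins, from 28.3 ± 3.58 to 2.06 ± 0.416 CPM (−3.77, adjusted p = 3.78e-07 by edgeR; SD, n = 3 each). Col3a1, fibrillar collagen III, fell from 4368 ± 18.6 to 962 ± 112 CPM (SD, n = 3 each; −2.18, adjusted p = 1.37e-07 by edgeR). Edil3, an RGD protein bound by αv integrins, rose from 28, 32 and 34 counts to 140, 141 and 170 (2.18, adjusted p = 1.33e-05 by edgeR). Itga4 and its ligand Vcam1 thus moved in opposite directions, while Itgb2 and Icam1 both fell.

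Among the pathway lists, that of other genes of the basement membrane had the largest share of lower genes. Of 28 listed 21 were tested, 1 was higher and 10 lower past the threshold, and 1 was higher and 17 lower by adjusted p (median −1.0). The lower genes were 47.6% past the threshold and 81.0% by adjusted p, against 7.78% and 20.0% of all genes tested. By adjusted p the lower share was larger still for the marker lists of fibroblasts (83.3%), mural and muscle cells (88.9%) and macrophages (90.0%). The share of higher genes was 4.76% by either measure, against 3.87% past the threshold and 17.1% by adjusted p. Col15a1, a collagen that bridges basement membrane and interstitium, had 3250, 3345 and 3226 counts alone and 115, 128 and 136 in coculture (log2 fold change −4.77, adjusted p = 8.56e-09 by edgeR). Smoc2, a calcium-binding matrix protein, had 617, 602 and 647 counts alone and 49, 51 and 45 in coculture (−3.76, adjusted p = 4.59e-08 by edgeR), and Tinagl1 fell from 97.5 ± 1.65 to 30.2 ± 1.80 CPM (−1.69, adjusted p = 2.8e-07 by edgeR; SD, n = 3 each). The higher gene was Npnt, nephronectin, the ligand of α8β1, at a log2 fold change of 1.02 (adjusted p = 0.000165 by edgeR), which is also on the ligand list. So are Col4a1 and Col4a2, both lower by adjusted p (log2 fold change −0.84 and −0.67). Col1a1, Col1a2 and Col3a1 are shared by the ligand list and the fibroblast markers. The lists are therefore not independent.

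All 20 listed laminin receptors other than integrins, with the tetraspanins that accompany integrins, were tested. Of these 2 were lower past the threshold, and 1 was higher and 12 were lower by adjusted p (median −0.37). The lower genes were 10% past the threshold, near the 7.78% of all genes tested, and 60.0% by adjusted p, against 20.0%. The share higher by adjusted p was 5.0%, against 17.1%. Sdc4, the syndecan of focal adhesions, fell from 270.1 ± 11.7 to 108.2 ± 8.06 CPM (log2 fold change −1.32, adjusted p = 1.11e-06 by edgeR), and Sgcd, a sarcoglycan of the dystroglycan complex, from 12.01 ± 0.398 to 4.77 ± 0.767 CPM (−1.33, adjusted p = 0.000154 by edgeR; SD, n = 3 each). The gene that rose was the tetraspanin Cd81.

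**Figure D5:**
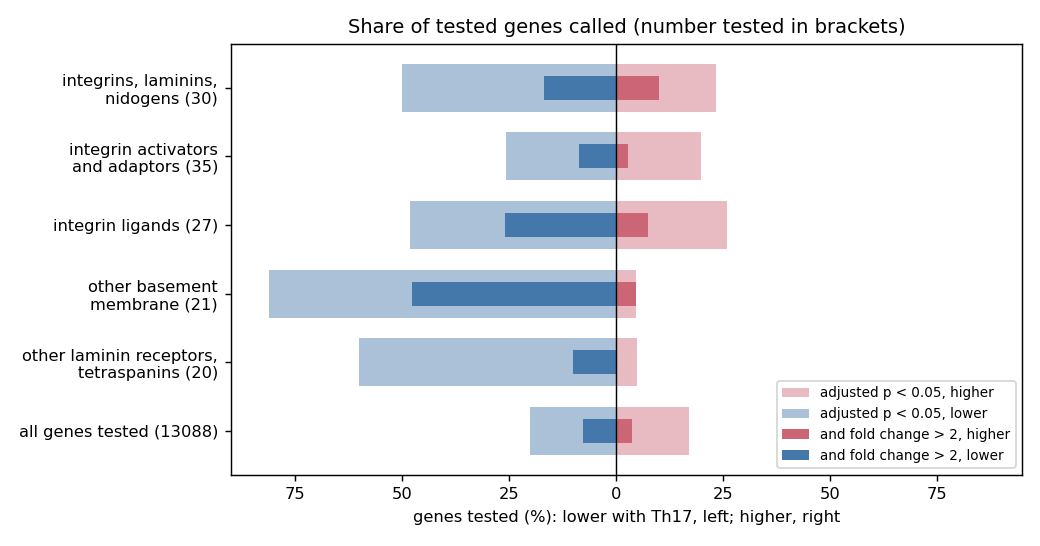
Percent of tested genes (x axis, lower with Th17 to the left and higher to the right) called in each list (y axis, number tested in brackets); pale bars are calls by adjusted p and dark bars calls that also passed a 2-fold change. Against all 13088 genes tested, the bars for lower genes are longest for the other basement membrane genes, where 17 of 21 were lower.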

How the data were processed

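RNA was sequenced from 6 libraries of primary mouse renal fibroblasts, 3 cultured alone and 3 cocultured with Th17 cells. After quality filtering in Seqtk, the authors mapped reads using HISAT2 (version 2.0.4), quantified genes with StringTie (1.3.3b) and deposited a table of raw fragment counts. The deposited table also lists FPKM, in which the authors divided each count by gene length and by the library total. The submitters' notes name mm10 as the build. Whether counting used strand was not stated, so reads of overlapping genes cannot be told apart. All 40 rows were found at their GENCODE M21 positions on GRCm38.

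Samples were grouped by title. Total counts were 12050529 to 13209581, and columns of other samples were 0. The quasi-likelihood test of edgeR 4.0.16 (R 4.3.3; glmQLFit, glmQLFTest) was run with TMM factors on the 13088 genes that filterByExpr kept at its minimum count of 10, and p-values were adjusted over them by Benjamini-Hochberg. The SE is the log2 fold change divided by the square root of F. The threshold followed the study's methods (adjusted p below 0.05, fold change above 2). Levels were compared between genes per length, and shares of FPKM were tested with an exact permutation test over libraries. CPM shares and values per kb of annotated exon were alternatives with no test. Intervals and floors (3 counts) cover counting error only.

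On simulated counts with 200 of 13088 genes changed, edgeR recovered 100% and made 2 false calls. DESeq2 recovered 100% and limma 94%, both with 0 false calls. The simulation changed only well-counted genes, each by well over 2-fold, with 1 common dispersion (0.01356) for all genes. It therefore cannot tell how well smaller changes, or changes of genes with few counts, are recovered. Same-numbered libraries did not deviate together (correlations 0.0157, −0.0256 and −0.0036).

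The selected genes were accounted for, and 1 tested gene that entered the counts and shares is not reported here. Values in each library were given for genes past the threshold and for the gene with the highest FPKM in each class. From each pathway list the 3 genes with the largest change past the threshold were named, if the higher group averaged 100 counts or more; on the list of other laminin receptors 2 met this. Npnt, Cd81, Edil3 (next below Col3a1 in size of change) and genes set beside these were named after their values were seen. The genes and lists were chosen with earlier results of these data known. Alternatives were other scalings, filters, DESeq2 1.42.0, limma 3.58.1 on log2(FPKM + 1), glmTreat, a replicate block and leaving out each library. Promoters came from RefSeq (GRCm38.p6). Tables and figures were made with Python 3.11.15, pandas 2.3.3 and matplotlib 3.10.9.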

Additional observations from a re-analysis of the deposited data

How the results depend on the processing

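Of the 22 genes past an adjusted p of 0.05, 18 kept their direction and an adjusted p below 0.05 under every alternative that could test them, glmTreat apart. The exceptions were Itgav, Itgb3, Itga10 and Lamb2. Itgb8 and Itgb2, which passed the filter on low counts through the lone group, are among the 18. Of 418 combinations of gene and alternative (without glmTreat), 392 kept direction and call, 21 lost the call, 1 gained it and 4 turned direction. Those 4 were genes without a call. When a library was left out, the log2 fold change of Itga2b lay between −0.144 and 0.412, with −0.097 without lone replicate 3 and −0.144 without cocultured replicate 3. That of Itga8 lay between −0.249 and 0.059, with 0.059 without lone replicate 3 and 0.009 without cocultured replicate 2. The count of genes higher past the threshold was 3, and it was 1 with the replicate block (Itga10 lost its call and Itgav its fold change above 2), 0 with glmTreat and 0 with limma on log2(FPKM + 1); at an unadjusted p below 0.05 those tools gave 0 and 0 genes past the 2-fold limit, while limma called 6 genes higher by adjusted p without it. It was 1 to 3 when a library was left out, and 1 without lone replicate 1, lone replicate 2 or cocultured replicate 2. The count higher by adjusted p was 7 and was 3 to 6 when a library was left out, with 3 without lone replicate 1 and 4 without lone replicate 2, lone replicate 3 or cocultured replicate 2. The count lower past the threshold was 5, and it was 8 without a filter on low counts, 2 with limma and 3 with glmTreat. On the pathway lists 3 higher genes became 1 with limma and 22 lower genes became 13 with glmTreat. Over all genes 1524 calls became 626 with limma and 791 with glmTreat. On the log2(FPKM + 1) scale fold changes of low genes are understated, and glmTreat tests against a 2-fold change itself. The share of Itgav among α subunits was higher by 4.73 percentage points in FPKM and by 11.8 in CPM. The share of laminin γ chains changed by −9.63 points in FPKM and −8.6 in CPM, and that of Lama1 by −12.2 in FPKM and −9.53 in CPM. With the length of all annotated exons, an alternative chosen after seeing the data, the share of Itga11 changed by −32.8 points and that of Lama1 by −11.01, against −36.4 and −12.2 in FPKM. No value could be had for Itgb8 and Itga10 with at least 10 counts in every library. No pairing by replicate number was stated, and none was used in the main test. The low correlations of same-numbered libraries cannot exclude a pairing. With 3 libraries a group, shares could not reach an exact p below 0.1, and genes under about 10 counts were not tested.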
